A study of Mus musculus with 8 samples.

Results

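The genes described here are the WNT ligands, their frizzled and LRP receptors, the secreted WNT antagonists, and the core of the cytoplasmic and nuclear relay, measured by array in mouse cumulus cells before and after an ovulatory stimulus. They were chosen by gene symbol alone, as probe sets annotated to a single gene of the Wnt, Fzd, Sfrp, Dkk, Dvl or Tcf7 series or to one of a short list of pathway genes, so the rule itself uses no difference between arrays. Of the 10 genes named singly 8 had such a probe set. The rule gave 51 probe sets for 41 genes of the 8251 genes with a probe set of their own. There were 14 ligands, 10 receptors and co-receptors, 7 secreted antagonists, 7 cytoplasmic proteins and 3 TCF/LEF factors, and the probe set of highest mean stands for a gene that has several, as 8 do.

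Cumulus cells are the somatic cells that surround the oocyte. They came from Ptger2(-/-) mice (EP2KO), in which the gene for the prostaglandin E2 receptor EP2 is deleted, and from WT mice. Both genotypes are labelled C57Bl/6, and all were females of 3 to 4 weeks injected with 5 IU of PMSG to grow their follicles. Groups were taken at 0 h (48 h after PMSG, no hCG) and at 3, 9 and 14 h after 5 IU of hCG, which stands in for the LH surge. Each of the 8 groups is 1 array, and the labels do not say how many mice went into an array. At 0, 3 and 9 h the cells were stripped from complexes flushed out of large follicles by puncture, whereas at 14 h they were freed with 0.1% hyaluronidase from ovulated complexes in the oviduct. A change after ovulation and a change in collection therefore cannot be told apart.

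WNT proteins are lipid-modified secreted signals that bind frizzled receptors together with LRP5 or LRP6. Through dishevelled they stop a complex of Axin, APC and GSK3 from destroying beta-catenin, which then enters the nucleus and activates genes with TCF/LEF factors; other WNTs act through frizzled on cell polarity and calcium without beta-catenin. Secreted frizzled-related proteins (SFRPs) bind WNTs outside the cell, and several Dickkopf proteins block the LRP co-receptors. In the mouse ovary Wnt4 is needed for normal ovary formation and follicle growth, Fzd4 for a working corpus luteum, and Sfrp4 is known from granulosa cells of ovulatory follicles and from corpora lutea.

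The values are log2 signals, so a difference of 1 is a doubling of signal, and levels of different genes are not set against each other. Array medians lay between 7.79 and 7.89. Inha, the inhibin alpha subunit made by granulosa and cumulus cells, read between 12.34 and 14.37. Of 12 measured markers of these cells 9 fell at 14 h against 0 h and none rose, with a median change of -1.62. Among all probe sets 15.2% were called lower and 13.5% higher in that comparison, with a median change of -0.06. The mean of the 12 markers was 9.34 in EP2KO and 9.44 in WT at 14 h, against 11.16 and 11.12 at 0 h. Inhbb, an inhibin and activin subunit, read 7.26 in EP2KO and 7.33 in WT at 14 h, against 12.79 and 12.65 at 0 h. The 3' minus 5' difference of the Gapdh control probe sets, which grows as RNA or amplified product shortens, was 2.82 and 2.87 at 14 h (EP2KO and WT) against 0.8 to 1.86 on the 6 earlier arrays; its part in the 14 h results was not tested. Ptger2 itself read 4.57, 4.24, 4.69 and 4.51 in EP2KO at 0, 3, 9 and 14 h, and 4.95, 5.97, 5.37 and 5.33 in WT, lower in EP2KO at each time; whether the probe set lies in the deleted part is not given in the labels. A gene is said to rise or fall where limma's moderated test, in a fit with time and genotype, gave a Benjamini-Hochberg adjusted p under 0.05 over all 12422 probe sets; each time is then represented by 2 arrays, 1 of each genotype, and p-values measure the spread between these single arrays, which may be technical. A genotype difference that varies with time also enters this spread.

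Over the time course 15 of the 41 genes changed in at least 1 of 4 comparisons between times, and 26 in none. That is 36.6% of the members, where 60.2% of all probe sets were called at least once. The changes of at least 0.9 on the log2 scale came from 5 genes. The antagonists Sfrp4 and Sfrp2 and the ligand Wnt4 ended higher at 14 h than at 0 h, the ligand Wnt11 was higher at 3 h, and the receptor Fzd4 fell by 3 h. Most of the family moved little: the median range over the 8 arrays was 0.49 for the members and 0.66 for all probe sets, and 6 members spanned at least 1, whereas 25.7% of all probe sets did. Of the members, 20 read below the array median on every array and 3 below its lower quartile. The shares of all probe sets that did so were not counted. By mean signal 18 of the 41 lay in the lowest 40% of all probe sets, so the family is not set apart by low signal. Such low signals may lie near background, and detection calls were not used here.

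**Figure D1:**
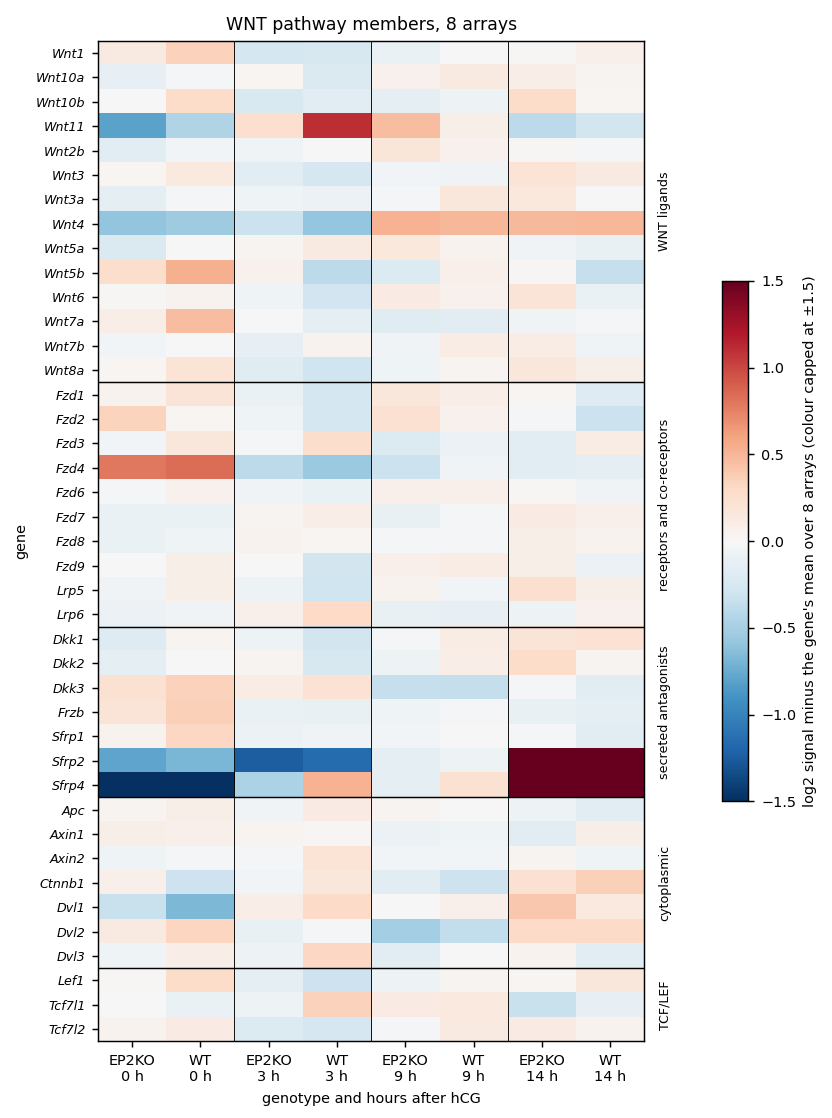
Log2 signal of each of the 41 members minus that member's own mean over the 8 arrays (rows, grouped by role), with the EP2KO and WT arrays side by side at each time after hCG (columns); colour is capped at 1.5 in either direction. Sfrp2 and Sfrp4 stand out at 14 h, Wnt4 at 9 and 14 h, Wnt11 at 3 h and Fzd4 at 0 h, and most other rows are pale.

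The 250 bases before the annotated start are shown for 4 of these 5 genes, which carried the larger changes and moved at different times. No promoter entry matched Sfrp4, the gene with the largest change, so it is not shown. The sequences are from RefSeq (GRCm38.p6; entries matched 26 of the 41 members), run 5′ to 3′ along the gene, and hold in capitals every match, on either strand, to TCF/LEF (CTTTGA), the CRE core (TGACG), RUNX (TGTGGT), SP1/KLF (GGGCGG) or the TATA box (TATAAA). Overlapping matches run together.
Sfrp2 (chr3:83766071-83766320, plus strand): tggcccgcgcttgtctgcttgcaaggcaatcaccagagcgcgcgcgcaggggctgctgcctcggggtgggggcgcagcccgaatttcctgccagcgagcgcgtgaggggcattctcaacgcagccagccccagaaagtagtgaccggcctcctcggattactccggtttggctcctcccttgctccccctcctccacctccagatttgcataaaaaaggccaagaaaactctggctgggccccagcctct
Wnt4 (chr4:137277385-137277634, plus strand): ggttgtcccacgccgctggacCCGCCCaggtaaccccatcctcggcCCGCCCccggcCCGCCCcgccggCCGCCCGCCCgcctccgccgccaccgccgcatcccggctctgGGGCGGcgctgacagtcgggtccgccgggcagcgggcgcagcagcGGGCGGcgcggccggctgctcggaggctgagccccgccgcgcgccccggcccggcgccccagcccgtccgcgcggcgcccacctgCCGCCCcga
Wnt11, first start (chr7:98834862-98835111, plus strand): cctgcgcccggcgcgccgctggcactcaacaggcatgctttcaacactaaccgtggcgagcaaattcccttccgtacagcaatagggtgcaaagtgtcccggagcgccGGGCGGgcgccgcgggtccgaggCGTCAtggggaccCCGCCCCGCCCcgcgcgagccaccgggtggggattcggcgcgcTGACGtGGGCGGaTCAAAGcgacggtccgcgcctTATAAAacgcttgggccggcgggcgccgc
Wnt11, second start (chr7:98838595-98838844, plus strand): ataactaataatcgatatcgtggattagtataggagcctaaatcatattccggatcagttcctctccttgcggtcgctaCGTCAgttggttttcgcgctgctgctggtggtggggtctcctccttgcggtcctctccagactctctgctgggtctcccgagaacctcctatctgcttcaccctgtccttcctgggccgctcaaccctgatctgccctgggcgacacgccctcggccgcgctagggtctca
Fzd4 (chr7:89404116-89404365, plus strand): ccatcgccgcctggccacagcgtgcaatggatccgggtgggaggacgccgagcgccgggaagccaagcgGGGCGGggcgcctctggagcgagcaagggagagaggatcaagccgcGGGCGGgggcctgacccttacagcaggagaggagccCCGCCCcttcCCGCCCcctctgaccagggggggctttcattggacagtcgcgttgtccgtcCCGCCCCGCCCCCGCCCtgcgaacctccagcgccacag

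These windows differed in content. The first Wnt11 start had 1 TCF/LEF match 50 bases before the start, 2 CRE core matches, 4 SP1/KLF matches and a TATA box 29 bases before the start. Its second start had 1 CRE core match. Fzd4 had 7 matches and Wnt4 had 8, all to SP1/KLF, and Sfrp2 had none of the 5 motifs. Over the 34 promoter entries of members 17.6% held the TCF/LEF letters and 14.7% the CRE core, against 13.8% and 17.8% of all 32851 entries. RUNX letters stood in 2.94% of member entries and 14% of all, and the TATA box in 20.6% of member entries and 12.4% of all. SP1/KLF letters stood in 76.5% of member entries and 32.7% of all, and median GC content was 68.6% and 52.4%. A match describes letters only.

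Among the ligands, Wnt4 rose late before ovulation. It read 7.97, 8.24, 9.08 and 9.05 in EP2KO at 0, 3, 9 and 14 h, and 8.03, 7.98, 9.06 and 9.06 in WT. The 4 arrays of 9 and 14 h all lay above the 4 arrays of 0 and 3 h, and the genotypes differed by 0.02 at 9 h and by -0.01 at 14 h (EP2KO minus WT). The rise at 9 h against 3 h was 0.96 ± 0.124 on the log2 scale (1.95-fold; SE, 2 arrays per time; limma, adjusted p = 9.43e-04), and at 14 h against 0 h it was 1.05 ± 0.124 (adjusted p = 1.22e-04). The change at 3 h against 0 h was 0.11 and did not pass (adjusted p = 0.488).

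Wnt11, a ligand known for cell movements and for kidney branching, was high early. It read 6.27, 7.32, 7.53 and 6.68 in EP2KO, and 6.62, 8.18, 7.15 and 6.79 in WT. In WT the 3 h array was the highest, while in EP2KO the 9 h array was, 0.21 above 3 h. The rise at 3 h against 0 h was 1.30 ± 0.227 (2.47-fold; limma, adjusted p = 0.0019), and every 3 h array lay above every 0 h array. By 14 h Wnt11 stood 0.29 above 0 h, which did not pass (adjusted p = 0.386).

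The other ligands gave small changes. Wnt5b, a ligand of the polarity type, read 7.93, 7.73, 7.47 and 7.69 in EP2KO and 8.2, 7.28, 7.75 and 7.32 in WT. It fell by 0.56 ± 0.188 at 3 h (limma, adjusted p = 0.0359) and stood at the same -0.56 at 14 h against 0 h (adjusted p = 0.0478). The 3 h change was -0.20 in EP2KO and -0.92 in WT, and without the WT 0 h array it was -0.34 with adjusted p = 0.338. Without the WT 3 h array it was -0.30, again with adjusted p = 0.338. The 14 h difference was -0.34 without the WT 0 h array (adjusted p = 0.394) and -0.36 without the WT 14 h array (0.337), and it did not pass after median centring (0.0647) or with probe sets averaged (0.0526). Wnt1, the founding ligand of the family, fell by 0.49 ± 0.116 at 3 h (adjusted p = 0.00843) and Wnt8a by 0.36 (adjusted p = 0.0408). Neither passed without the WT 0 h array (adjusted p = 0.086 and 0.267) or the WT 3 h array (0.076 and 0.254), and Wnt8a did not pass without either 9 h array (0.0722). The remaining 9 ligands passed in no comparison by their probe set of highest mean; they include Wnt5a, whose signal stayed between 6.08 and 6.45. Another Wnt10b probe set fell by 0.52 at 3 h (limma, adjusted p = 0.0101). It read between 3.54 and 4.19 on all arrays, and so low a signal may lie near background. The remaining Wnt10b probe set, with a mean of 6.81, changed by -0.11 at 3 h (adjusted p = 0.466).

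Of the receptors, Fzd4, which binds WNTs and also norrin, fell early and was still lower at 14 h than at 0 h. It read 11.12, 9.94, 10 and 10.17 in EP2KO at 0, 3, 9 and 14 h, and 11.17, 9.77, 10.27 and 10.18 in WT. Both 0 h arrays lay above the 6 arrays taken after hCG. The fall was 1.29 ± 0.131 at 3 h against 0 h, so that signal was 2.45-fold lower (limma, adjusted p = 1.25e-04), and at 14 h against 0 h the change was -0.97 (adjusted p = 3.06e-04). A pair of other Fzd4 probe sets, with means of 5.03 and 4.25, gave changes at 3 h of -0.03 and -0.28 that did not pass; with all of its probe sets averaged the change was -0.54 at 3 h and -0.27 at 14 h, where the call was lost (adjusted p = 0.0982).

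Fzd2 fell by 0.34 at 3 h (adjusted p = 0.0359) and was 0.35 below 0 h at 14 h (adjusted p = 0.0425), as the only other receptor called in these comparisons. Leaving out an array of 0, 3 or 9 h ended its 3 h call, with adjusted p from 0.0735 to 0.129, and leaving out an array of 0, 9 or 14 h ended its 14 h call (0.089 to 0.203), as did median centring (0.0544) and a fit without genotype (0.109). Median centring and that fit also ended its 3 h call (0.0849 and 0.0875). Fzd6 had the narrowest range of all members, 0.17 over the 8 arrays. Of the co-receptors, Lrp5 ranged over 0.54 and Lrp6 over 0.42, and neither passed. A second Fzd3 probe set rose by 0.40 at 3 h (adjusted p = 0.0262), whereas the one with the higher mean changed by 0.06 (adjusted p = 0.718).

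**Figure D2:**
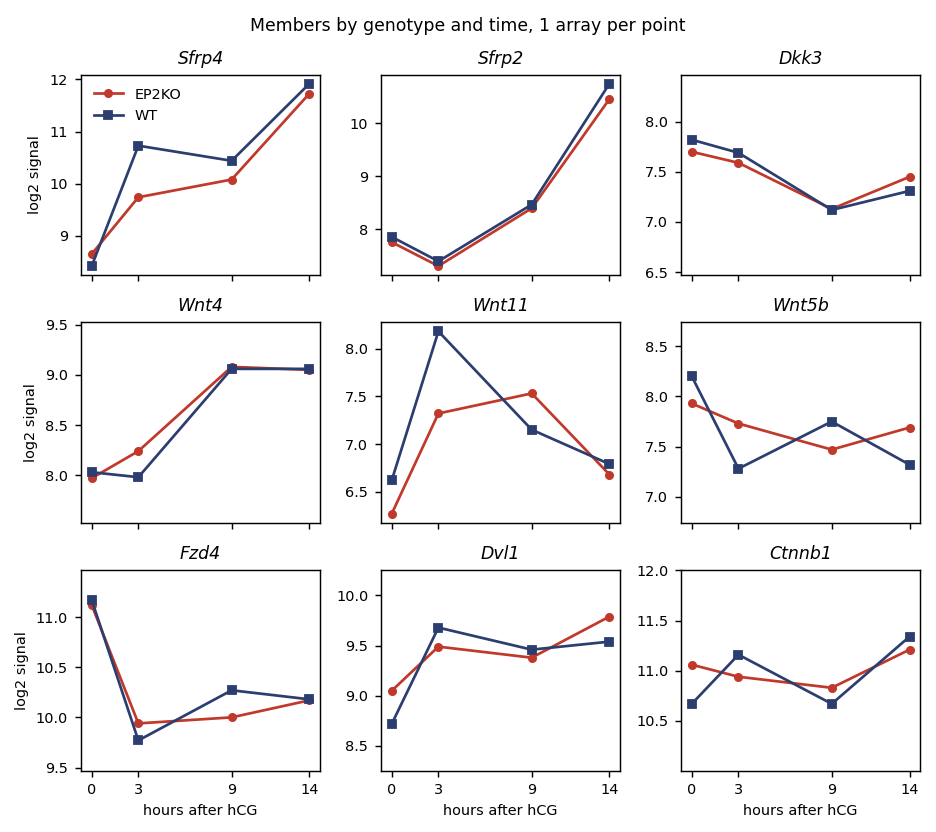
Log2 signal of 9 members against hours after hCG, with 1 array per point, circles for EP2KO and squares for WT; the panels have different vertical ranges. Sfrp4 and Wnt11 show the widest gaps between genotypes, at 3 h, and the lines of Sfrp2 and Dkk3 nearly overlie each other.

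The secreted antagonists held the largest changes of the family. Sfrp4 read 8.65, 9.74, 10.08 and 11.73 in EP2KO at 0, 3, 9 and 14 h, and 8.42, 10.73, 10.44 and 11.92 in WT. Both 14 h arrays lay above the 6 earlier ones and both 0 h arrays below the other 6. It rose by 1.70 ± 0.224 at 3 h against 0 h (3.25-fold; limma, adjusted p = 4.59e-04), stood 0.02 above 3 h at 9 h (adjusted p = 0.946), and rose by 1.56 ± 0.224 at 14 h against 9 h (2.96-fold, adjusted p = 6.66e-04). The net rise at 14 h against 0 h was 3.29 (9.78-fold, adjusted p = 3.06e-06).

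Sfrp2 followed another course. It read 7.76, 7.31, 8.4 and 10.46 in EP2KO, and 7.86, 7.4, 8.47 and 10.75 in WT, lowest at 3 h and highest at 14 h in both genotypes. The fall at 3 h was 0.46 ± 0.118 (limma, adjusted p = 0.0127), and it did not pass without the EP2KO 0 h, the WT 0 h or the WT 3 h array (adjusted p = 0.0567, 0.0682 and 0.0888). It rose by 1.08 ± 0.118 at 9 h against 3 h (2.11-fold, adjusted p = 4.32e-04) and by 2.17 ± 0.118 at 14 h against 9 h (4.50-fold, adjusted p = 3.64e-06). The net rise at 14 h against 0 h was 2.79, or 6.94-fold (adjusted p = 1.73e-07).

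Some markers of other cells moved with the SFRPs. Ovgp1, oviductal glycoprotein, read 11.46 in EP2KO and 11.13 in WT at 14 h, against 7.39 and 7.57 at 9 h, a rise of 3.81 (limma, adjusted p = 8.75e-07). Of 11 measured oviduct markers 4 rose and none fell at 14 h against 9 h. Of all probe sets 10% were called higher and 10.1% lower. The mean signal of the 11 was 8.27 in EP2KO and 8.03 in WT at 14 h, against 7.45 to 7.61 on the 6 earlier arrays. Their median change was 0.17, with 0.03 for all probe sets, and not all climbed with Ovgp1. Cldn3 read 6.43 in EP2KO and 6.26 in WT at 14 h, against 6.61 and 6.53 at 9 h. Wfdc2 read 6.63 and 6.57 at 14 h, against 6.7 and 6.7. Of 17 leukocyte markers 7 rose and none fell, with a mean of 8.12 in EP2KO and 7.75 in WT at 14 h against 7.08 to 7.43 earlier. Of 12 theca and stroma markers 3 rose and none fell: Insl3, a theca hormone, by 0.69, the hedgehog receptor Ptch1 by 0.78 and the collagen Col3a1 by 0.50 (adjusted p = 0.00495, 0.0423 and 0.017). The mean of that list was 7.81 in both genotypes at 14 h, against 7.41 to 7.85 earlier. Of 12 cumulus and granulosa markers 1 rose and 6 fell at this step.

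Other markers moved at the earlier steps. At 9 h against 3 h, when Sfrp2 rose, 2 of 10 endothelial markers rose and none fell, and 7.59% of all probe sets were called higher. Cdh5, VE-cadherin, read 7.79 in EP2KO and 8.47 in WT at 9 h, against 6.29 and 6.4 at 3 h. The median change of the 10 was smaller, 0.24, with 0.065 for all probe sets. Vwf, for example, read 7.87 in EP2KO and 7.88 in WT at 9 h, against 7.77 and 7.88 at 3 h. Of 17 leukocyte markers 2 rose and none fell at this step, Cd52 by 0.94 and C1qb by 0.68. C1qb read 7.84 in EP2KO and 7.92 in WT at 9 h, against 8 and 8.23 at 0 h. The median change of the 17 was 0.21, and not all climbed. Tyrobp, for example, read 6.85 in EP2KO and 6.88 in WT at 9 h, against 7.23 and 6.96 at 3 h. At 3 h against 0 h, when Sfrp4 rose, 2 of 4 erythroid markers rose and 1 fell, with Hba-a1, an alpha globin, higher by 1.60 (limma, adjusted p = 0.033); 17.4% of all probe sets were called higher. The part of other cells in the changes of the SFRPs was not tested at any step. In these bulk samples more cells of a type and more RNA per cell cannot be told apart.

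**Figure D3:**
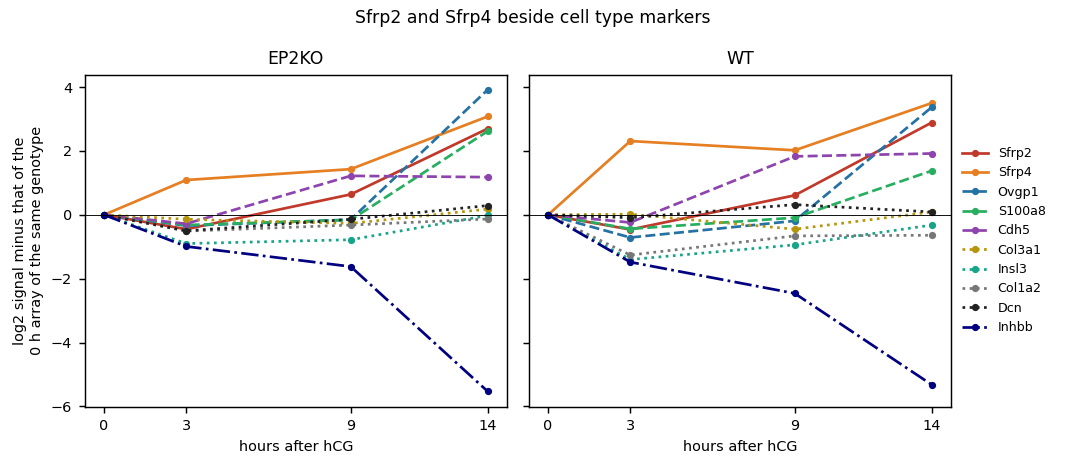
Change in log2 signal from the 0 h array of the same genotype for Sfrp2, Sfrp4 and markers of oviduct (Ovgp1), leukocytes (S100a8), endothelium (Cdh5), theca and stroma (Col3a1, Insl3, Col1a2, Dcn) and granulosa cells (Inhbb), with EP2KO on the left and WT on the right. Ovgp1 and S100a8 climb at 14 h together with Sfrp2 and Sfrp4, Cdh5 climbs at 9 h, and Inhbb descends over the whole course.

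The other antagonists changed less. Dkk3, a Dickkopf protein that differs from the LRP-binding members, read 7.7, 7.59, 7.13 and 7.45 in EP2KO, and 7.82, 7.69, 7.12 and 7.31 in WT, lowest at 9 h in both. It fell by 0.52 ± 0.12 at 9 h against 3 h (limma, adjusted p = 0.0154) and was 0.38 below 0 h at 14 h (adjusted p = 0.0375). The 9 h fall did not pass without the WT 3 h, the EP2KO 9 h or the WT 9 h array (adjusted p = 0.133, 0.0855 and 0.191), and the 14 h difference did not pass without the WT 14 h array (-0.28, adjusted p = 0.269), the WT 0 h array (0.215), the EP2KO 0 h array (0.0704) or either 9 h array (0.0736). Frzb, which is a secreted frizzled-related protein too, fell by 0.38 at 3 h (adjusted p = 0.0254) and was 0.40 below 0 h at 14 h (adjusted p = 0.026); without the WT 0 h array these were -0.30 (adjusted p = 0.179) and -0.32 (0.18). Leaving out the EP2KO 3 h, the WT 3 h or either 9 h array also ended its 3 h call (0.0526 to 0.143), and leaving out either 9 h or 14 h array its 14 h call (0.0562 to 0.155). Dkk1, Dkk2 and Sfrp1 passed in no comparison.

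Inside the cell, Dvl1, one of the dishevelled proteins that carry the signal from frizzled, rose by 3 h. It read 9.05, 9.49, 9.38 and 9.79 in EP2KO, and 8.72, 9.68, 9.46 and 9.54 in WT, with both 0 h arrays below the other 6. The rise was 0.70 ± 0.147 at 3 h against 0 h (1.62-fold; limma, adjusted p = 0.00486) and 0.78 at 14 h against 0 h (adjusted p = 0.00254). Without the WT 0 h or WT 3 h array the 3 h rise was 0.53 or 0.52 and did not pass (adjusted p = 0.0786 and 0.0684). Dvl2 fell by 0.37 at 9 h against 3 h (adjusted p = 0.0484) and rose by 0.73 at 14 h against 9 h (adjusted p = 0.00123); leaving out any 1 array ended the 9 h call (adjusted p from 0.0503 to 0.309). Its other probe set moved the opposite way at 9 h against 3 h, by 0.29, which did not pass (adjusted p = 0.105). At 14 h against 9 h that probe set moved the same way as the first, by 0.19, and did not pass (adjusted p = 0.327).

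Ctnnb1, which encodes beta-catenin, read 11.06, 10.94, 10.83 and 11.21 in EP2KO, and 10.67, 11.16, 10.67 and 11.34 in WT. Both 14 h arrays lay above the other 6, and the rise at 14 h against 9 h was 0.52 ± 0.154 (1.44-fold; limma, adjusted p = 0.0355). It did not pass without the EP2KO 9 h, WT 9 h, EP2KO 14 h or WT 14 h array (adjusted p = 0.109, 0.232, 0.0525 and 0.234), nor after centring every array at its median (0.0579). Axin2, the textbook feedback target of beta-catenin, stayed between 7.04 and 7.31 on all 8 arrays and stood 0.03 above 0 h at 14 h (adjusted p = 0.887). These Axin2 values lay below the array medians of 7.79 to 7.89, and so low a signal may lie near background. A flat reading of this kind cannot show whether beta-catenin was active. Axin1, Apc and Dvl3 passed in no comparison.

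Of the TCF/LEF factors, Lef1 fell by 0.38 at 3 h (limma, adjusted p = 0.0388), with a second probe set at 0.04 (adjusted p = 0.828). Its 3 h call ended without the WT 0 h array (-0.26, adjusted p = 0.274), the WT 3 h array (-0.22, 0.327) or either 9 h array (0.0648). Tcf7l1 and Tcf7l2 passed in no comparison, with ranges of 0.68 and 0.39 over the 8 arrays.

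**Figure D4:**
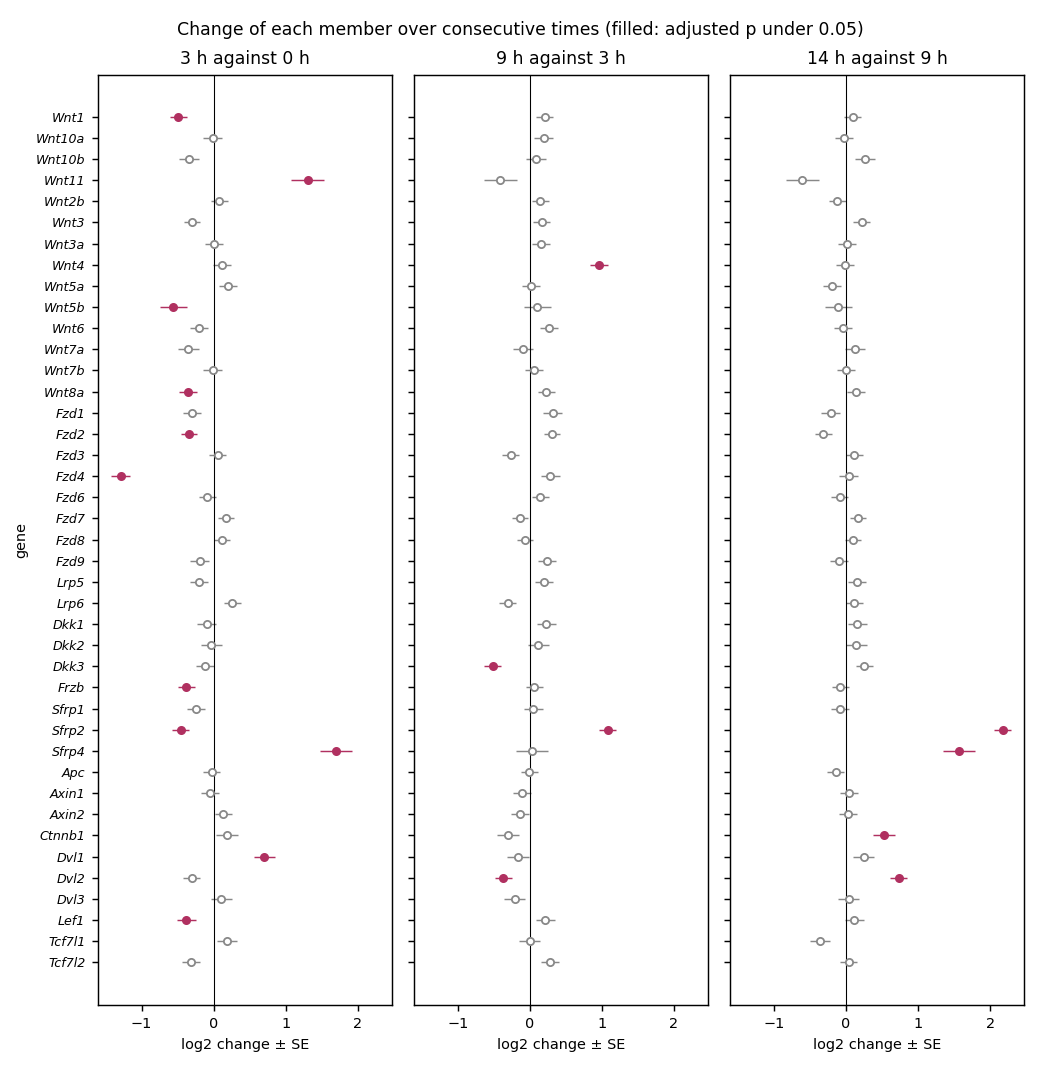
Log2 change with its standard error for each of the 41 members (rows, by role) at 3 h against 0 h, 9 h against 3 h and 14 h against 9 h, on 1 shared horizontal scale; filled points passed adjusted p under 0.05. Sfrp4, Wnt11 and Fzd4 lie farthest from 0 at 3 h, Sfrp2 and Wnt4 at 9 h, and Sfrp2 and Sfrp4 at 14 h.

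Counted over the family, 3 members rose and 8 fell at 3 h against 0 h, or 26.8% of the 41, while 42.8% of all 12422 probe sets were called in that comparison (17.4% higher and 25.4% lower). At 9 h against 3 h 2 rose and 2 fell, or 9.76%, with 19.4% called among all probe sets (7.59% higher and 11.8% lower); without the WT 3 h or the WT 9 h array 2 members were called, Sfrp2 and Wnt4, with 5.29% or 3.94% of all probe sets. At 14 h against 9 h 4 rose and none fell, again 9.76%, with 20.1% called (10% higher and 10.1% lower); at an unadjusted p under 0.05 there were 7 members, with 30.1% of all probe sets. At 14 h against 0 h 4 rose and 5 fell, or 22%, with 28.8% called (13.5% higher and 15.2% lower); without the WT 0 h or the WT 14 h array 5 members were called, Dvl1, Fzd4, Sfrp2, Sfrp4 and Wnt4, with 18.4% or 21.3% of all probe sets. In none of these did the share of members called exceed that of all probe sets. The median change of the members at 3 h was -0.09 and that of all probe sets -0.135. Without the WT 0 h or the WT 3 h array only Fzd4, Sfrp4 and Wnt11 of the members were called at 3 h, with 15.3% of all probe sets, and without either 9 h array 7 were, with 36.4%. After centring every array at its median 36.3% of all probe sets and 7 members were called, of which 4 rose and 3 fell, and Frzb, Fzd2, Lef1, Wnt5b and Wnt8a no longer passed, while Lrp6 did. The lower quartile of the arrays was 6.44 in EP2KO and 6.4 in WT at 3 h, against 6.58 and 6.65 at 0 h. Of other markers 7 of 17 for leukocytes, 4 of 12 for theca and stroma and 7 of 12 for cumulus and granulosa cells fell at 3 h. The part of these in the falls of the members was not tested.

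The genotype comparison asks whether cumulus cells without EP2 express these genes at another level. No member passed in EP2KO against WT over the 4 times (limma, 0% of all probe sets called). An unadjusted p under 0.05 was found for 2 members, Fzd2 at 0.24 ± 0.0808 and Fzd3 at -0.22 ± 0.0821 (adjusted p = 0.897 and 0.939). Over all probe sets 5.17% had an unadjusted p under 0.05, so this number of members is near the background. Fzd2 read higher and Fzd3 lower in EP2KO at each of the 4 times. The second Fzd3 probe set stood at -0.01 (limma, adjusted p = 0.995). The deleted gene did not pass either, with Ptger2 at -0.90 ± 0.176 (adjusted p = 0.528). The larger differences were at 3 h. Sfrp4 read 9.74 in EP2KO and 10.73 in WT, a difference of -0.99, the size of which ranked 62 among the 12422 probe sets at that time. Wnt11 read 7.32 in EP2KO and 8.18 in WT, a difference of -0.86. These were the 2 members with a difference of at least 0.5 at any time, against 4.08% of all probe sets at 3 h. Globins differed the same way at that time: Hba-a1 read 11 in EP2KO and 12.21 in WT, and Hbb-b2 7.81 in EP2KO and 8.71 in WT. Of the other erythroid markers at 3 h, Alas2 read 8.54 in EP2KO and 8.88 in WT, whereas Slc4a1 read 7.24 and 7.23. The mean of the 4 erythroid markers was 8.65 in EP2KO and 9.26 in WT at 3 h, and 8.57 and 9.87 at 9 h; their part in the differences of Sfrp4 and Wnt11 was not tested. From 0 to 3 h Sfrp4 gained 1.09 in EP2KO and 2.31 in WT, and Wnt11 gained 1.05 and 1.56. In the test of whether the genotype difference at 3 h departs from that at the other times, Sfrp4 stood at -0.88 ± 0.245 (limma, unadjusted p = 0.0055, adjusted p = 0.499) and Wnt11 at -0.83 ± 0.271 (unadjusted p = 0.013, adjusted p = 0.581). No member passed that test, nor the same test at 9 h or at 14 h, where 0%, 0% and 0.0805% of all probe sets were called at 3, 9 and 14 h (0.0644% higher and 0.0161% lower at 14 h) and 2, 1 and 0 members had an unadjusted p under 0.05, with 7.17%, 1.05% and 6.96% of all probe sets.

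**Figure D5:**
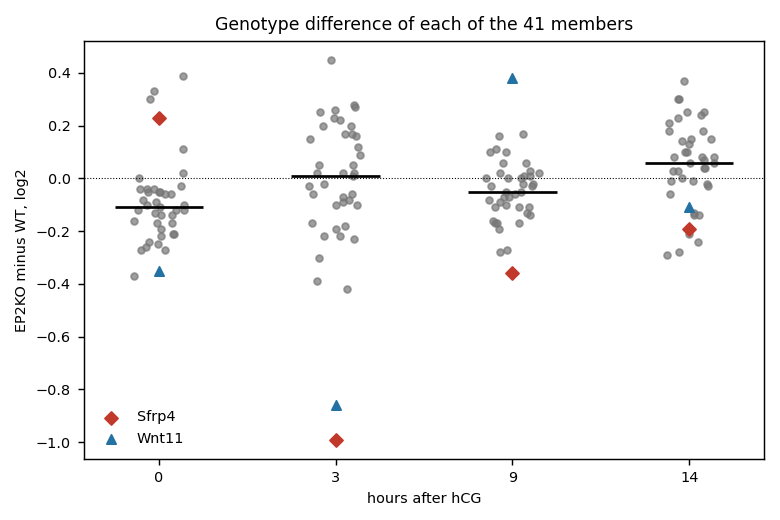
EP2KO minus WT difference in log2 signal at each time after hCG for the 41 members, with grey points for single genes, the bar for their median, diamonds for Sfrp4 and triangles for Wnt11. At 3 h these 2 genes lie at -0.99 and -0.86, below all other members, and at 14 h both are within 0.2 of 0.

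At 14 h the gap had narrowed, with Sfrp4 at -0.19 and Wnt11 at -0.11 (EP2KO minus WT). Wnt11 was 0.38 higher in EP2KO at 9 h. At 0 h 34 of the 41 members read lower in EP2KO, 6 higher and 1 equal, with a median difference of -0.11 against -0.02 for all probe sets; at 14 h 14 read lower and 26 higher, with a median of 0.06 against 0.02. The share of all probe sets that read lower was not counted. The lower quartile of the arrays differed the same way, at 6.58 in EP2KO and 6.65 in WT at 0 h, and 6.57 and 6.53 at 14 h. Its part in these counts was not tested.

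Other genes of the pathway were grouped into lists by function. The lists were chosen with earlier results of these data known, so shares above those of all probe sets are no test of the pathway. Of 14 measured genes for WNT secretion, co-receptors and modifiers, 5 rose and 1 fell at 14 h against 0 h, where 13.5% of all probe sets were called higher and 15.2% lower. Among them Wls, which carries WNT proteins to the cell surface, rose by 1.01 (limma, adjusted p = 1.36e-04) and stood 1.16 above 9 h at 14 h, and the heparan sulfate proteoglycans Sdc1 and Gpc4 rose by 1.42 and 1.28. Of 25 measured regulators of beta-catenin in the cytoplasm 6 rose and 3 fell, with Frat2, a GSK3-binding protein, at 1.82 (adjusted p = 2.11e-05). Of 21 nuclear cofactors 3 rose and 4 fell, with Ruvbl2, an ATPase of chromatin complexes, at -1.02 (adjusted p = 2.06e-04), the corepressor subunit Tbl1xr1 at 1.03 and Tle3, a Groucho-type corepressor, at 1.02 (adjusted p = 7.6e-04). The shares of this list called are near those of all probe sets. Of 23 genes of the polarity and calcium branches 8 rose and 3 fell, with Prkca, a protein kinase C, at 1.52 and the small GTPase Rhou, a WNT-responsive gene in mouse cells, at 1.44, after a fall by 0.79 at 3 h. Of 18 adhesion partners of beta-catenin 5 rose and 1 fell, with vinculin, Vcl, at 3.29 and alpha-actinin, Actn1, at 2.08. The 40 measured textbook beta-catenin targets split into 17 that rose, 6 that fell and 17 that did not pass at 14 h against 0 h. Abcb1b, a drug efflux pump, Lgals3, galectin 3, and Sgk1, a kinase of salt transport, had the largest rises, of 5.15, 4.67 and 4.48. The medians of the 6 lists at 14 h against 0 h lay between -0.055 and 0.18, and that of all probe sets was -0.06. No gene of these lists passed in EP2KO against WT.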

How the data were processed

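Gene expression was measured on Affymetrix MG-U74Av2 arrays from 8 samples, 1 array for each genotype and time, after 2 rounds of amplification per the labels' protocols. RMA is the tool named in the submitters' processing notes, and no source used here gives its version. The authors deposited log2 signals, which were tested with no further scaling. Of 12488 probe sets 66 Affymetrix controls were left out, and 12422 were tested with no filter on low values. Probe sets were named from the platform annotation, where 10833 carry 1 symbol, 396 several and 1193 none.

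limma 3.58.1 under R 4.3.3 (lmFit and eBayes) gave two-sided tests with Benjamini-Hochberg adjustment over all tested probe sets. Time contrasts and the genotype contrast came from a fit with time and genotype (3 residual degrees of freedom, prior 7.24), and the departure of a genotype difference at 3, 9 or 14 h from a fit with that interaction added (2 residual degrees of freedom). The fits were tested on simulated data. The number of arrays limits the precision, with a median standard error of 0.13 for a time contrast. At most 2.54% of values were equal between any 2 arrays. Any member could be named in the text, and from each pathway list the 3 largest called changes per comparison. The members and lists were chosen with earlier results of these data known. Alternatives were median centring, quantile normalization, leaving out the lowest 40% of probe sets, averaging probe sets, a trended and robust prior, other terms, subsets of arrays and leaving out each array.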

Additional observations from a re-analysis of the deposited data

Results flagged for a closer look

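No member passed the tests of whether its genotype difference at 3, 9 or 14 h departs from that at the other times. In 44 of the 164 combinations of a member and a pair of times the EP2KO and WT arrays moved in opposite directions. In 12 of these both changes exceeded 0.13, the median standard error of a time contrast. That error is for a change averaged over the genotypes, and a change between single arrays has a larger error. Some of the 12 may therefore lie within the spread between arrays. How often all probe sets moved in opposite directions was not counted. The 12 are given as the EP2KO change and the WT change, with EP2KO minus WT after them; the differences of these changes were not themselves tested, and each rests on 1 array per group. The largest was Wnt11 at 9 h against 3 h, with 0.21 in EP2KO and -1.03 in WT, a difference of 1.24. At the same step Sfrp4 moved by 0.34 in EP2KO and -0.29 in WT (0.63), Tcf7l1 by 0.19 and -0.20 (0.39) and Wnt5b by -0.26 and 0.47 (-0.73). At 3 h against 0 h Dkk2 moved by 0.17 in EP2KO and -0.24 in WT (0.41) and Wnt10a by 0.16 and -0.19 (0.35). At 14 h against 9 h Wnt5b moved by 0.22 in EP2KO and -0.43 in WT (0.65), Dvl3 by 0.23 and -0.15 (0.38), Wnt3a by 0.18 and -0.16 (0.34) and Wnt7b by 0.17 and -0.17 (0.34). At 14 h against 0 h Wnt10b moved by 0.27 in EP2KO and -0.25 in WT (0.52) and Wnt6 by 0.18 and -0.15 (0.33).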

How the results depend on the processing

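The fits with time and genotype already pair the EP2KO and WT array of each time. No other pairing was possible because each group holds 1 array and the labels number no replicates. Of the 28 called changes none reversed under any alternative run; 12 passed in every alternative other than a left-out array and 13 passed without any 1 array. The rises of Sfrp4 and Sfrp2 at 14 h, of Wnt4 at 9 and 14 h, of Sfrp4 and Wnt11 at 3 h and of Sfrp2 at 9 h passed in every alternative that tested them; Wnt11 is not among the 23 members left by the filter on low values. The count of members called at 3 h against 0 h was 11, and 7 with arrays centred on their medians, 4 with only the 4 arrays of those times, and 3 to 12 without 1 array. At 9 h against 3 h it was 4, and 2 with only the 4 arrays, and 2 to 4 without 1 array. At 14 h against 9 h it was 4, and 2 with only the 4 arrays, and 3 to 5 without 1 array. At 14 h against 0 h it was 9, and 5 to 9 without 1 array. With only the 6 arrays of 0, 3 and 9 h, a choice made after seeing the data, 12 members were called at 3 h against 0 h, among them all 11. Fits on 4 arrays have fewer residual degrees of freedom; otherwise the cause was not tested. The genotype and departure counts were 0 in every alternative run.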
